A study of Mus musculus with 24 samples.

Results

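The respiratory chain of the liver was examined gene by gene through 108 of the 18314 genes listed in the long RNA table. The members were taken by symbol alone: Nduf, Sdha to Sdhd, Uqcr, Cox4 to Cox8, Atp5, and the protein-coding genes of mitochondrial DNA. They comprise 13 mitochondrially and 95 nuclear encoded genes. Of these, 104 passed the filter on low counts and were tested, all 13 mitochondrial and 91 of the nuclear ones, among 13832 genes in all. The 4 that did not pass were the muscle and fat isoforms Cox6a2 and Cox8b, the pseudogene Cox5b-ps and a second entry named Atp5po. By complex, the members are 37 nuclear and 7 mitochondrial subunits of complex I, 4 nuclear subunits of complex II, 8 nuclear and 1 mitochondrial subunit of complex III, 16 nuclear and 3 mitochondrial subunits of complex IV, and 17 nuclear and 2 mitochondrial subunits of complex V. The symbol rule also takes members that are not chain subunits: 8 assembly factors of complex I (Ndufaf), the ATP synthase inhibitor Atp5if1, and the pair Ndufa4 and Ndufa4l2, named for complex I although Ndufa4 is now counted with complex IV. It leaves out cytochrome c1 (Cyc1) and cytochrome c (Cycs).

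The mice were male wild-type C57BL/6 in 3 groups. HFD plus HQHF mice received a high-fat diet and, after 12 weeks of it, HQHF by gavage; the labels give HQHF only by these letters, and neither the dose of the sequenced mice nor the length of treatment. HFD mice received the high-fat diet, used here to bring about metabolic dysfunction-associated fatty liver disease, and control mice a normal diet. Age is not stated. Each group kept 9 mice, of which 4 per group have long RNA libraries, each with its own batch code. Comparisons rest on 10 libraries: 3 from HFD plus HQHF (mice 1, 2 and 4), 4 from HFD and 3 from control (mice 1, 3 and 4). The study's aim, as far as its design text states it, was to follow ferroptosis-related mechanisms, which no comparison below addresses.

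Mitochondrial oxidative phosphorylation runs electrons from NADH through complex I, or from succinate through complex II, to complex III and on to oxygen at complex IV. Complexes I, III and IV pump protons across the inner membrane, and complex V, the ATP synthase, uses the gradient to make ATP. Complex II is wholly nuclear encoded, and the others are built from the products of both genomes. Mitochondrial DNA is transcribed from both strands as long precursors that are then cut, and mt-Nd6 is the one protein-coding gene encoded on the light strand. Hepatocytes are rich in mitochondria, and the chain reoxidises the cofactors that fatty acid oxidation reduces.

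Promoters of the nuclear members are shown first, since 52 nuclear members were called lower in HFD against control with TMM scaling. RefSeq promoter sequences (build GRCm38.p6) were found for 76 of 93 nuclear members looked up, with 81 promoters among them, each window holding 250 bases before and 50 after the start. The sequences below are the 250 bases before the start, 5′ to 3′ on the gene's own strand, of 3 of the 4 nuclear members with the lowest called fold change in HFD livers. The fourth, Ndufa5, has more than 1 start in the table. Atp5me (subunit e of ATP synthase, listed in RefSeq as Atp5k) lies at chr5:108434400-108434649, minus strand. Ndufb3, an accessory subunit of complex I, lies at chr1:58586147-58586396, plus strand. Atp5mf, subunit f of ATP synthase, lies at chr5:145191542-145191791, minus strand. Capitals mark a match to the core of the NRF1 motif.
Atp5me: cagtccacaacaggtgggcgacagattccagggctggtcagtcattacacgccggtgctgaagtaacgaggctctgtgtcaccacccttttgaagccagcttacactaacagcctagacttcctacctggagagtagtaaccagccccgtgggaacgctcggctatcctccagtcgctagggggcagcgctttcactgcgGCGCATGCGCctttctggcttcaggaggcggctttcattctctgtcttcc
Ndufb3: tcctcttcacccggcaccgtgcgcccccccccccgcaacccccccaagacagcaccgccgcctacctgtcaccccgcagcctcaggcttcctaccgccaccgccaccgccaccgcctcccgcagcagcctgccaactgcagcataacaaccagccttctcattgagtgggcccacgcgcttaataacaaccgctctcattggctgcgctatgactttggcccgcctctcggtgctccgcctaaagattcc
Atp5mf: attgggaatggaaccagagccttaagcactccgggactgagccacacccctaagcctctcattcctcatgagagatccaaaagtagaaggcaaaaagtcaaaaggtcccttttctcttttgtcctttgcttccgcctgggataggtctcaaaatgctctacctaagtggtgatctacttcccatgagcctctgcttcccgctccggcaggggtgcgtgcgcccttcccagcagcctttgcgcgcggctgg
The NRF1 core starts 50 bases before the start of Atp5me and is absent from the printed bases of the other two. NRF1 is a transcription factor known for binding promoters of respiratory genes. On either strand and over the whole windows, the letters shown in capitals for Atp5me were found in 8.64% of member promoters, against 0.971% of all 32851 promoters in the table. Its 7 members were Atp5mc2, Atp5me, Cox6a1, Ndufa11, Ndufaf4, Ndufaf5 and Uqcrc1. The ETS core CCGGAAG was in 22.2% of member promoters against 8.86% of all, the YY1 core AAGATGGC in 13.6% against 2.75%, and the site of the ERR receptors, AAGGTCA, in 11.1% against 4.72%. Common promoter elements differed less in share: the CCAAT box was in 40.7% against 37.4%, and the GC box GGGCGG in 43.2% against 35.7%. In 1 member promoter motifs overlapped. These are matches of letters, not sites of binding. Of the 4 nuclear members lowest in HFD livers, Atp5me was the one whose window held the NRF1 core. The same window held the ETS core and the ERR site, and that of Atp5mf held the YY1 core. Other members with the NRF1 core, Atp5mc2, Cox6a1, Uqcrc1, Ndufaf4 and Ndufaf5, were not called in HFD against control. A link between these motifs and the calls was not tested.

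The libraries held between 36198931 and 46454404 counts. All members tested were read as CPM (counts per 1000000 counts) after TMM, which scales each library on the assumption that most genes do not differ. Calls are edgeR quasi-likelihood tests with a p below 0.05 after Benjamini-Hochberg adjustment over all 13832 genes, and fold changes carry their standard error. The labels give each mouse its own batch code and say no more of the replicates, so p-values measure the spread between these libraries. HFD plus HQHF 3 and control 2 were left out because the summed hepatocyte list was 0.00139% of counts in HFD plus HQHF 3 and 0.0058% in control 2, against 6.92% to 14.7% in the other 10. With all 12 libraries no member was called in any comparison. That fit called 7 of 13929 genes (0.0503%) in HFD against control. It called 1 gene in HFD plus HQHF against HFD and 0 in HFD plus HQHF against control. In HFD plus HQHF 3 the nuclear members took 4.29% of counts and the mitochondrial ones 17.7%. The subunits Cox7a1 and Cox8b, typical of heart, muscle and brown fat, had 565 and 815 CPM there (scaled by library totals), against at most 14.4 and 17.7 CPM in the other 10. Counts are not divided by gene length, so levels are compared between libraries and not between genes.

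As a share of all counts, the mitochondrially encoded members took 3.36%, 5.65% and 2.4% in HFD plus HQHF mice 1, 2 and 4, and 3.47%, 3.49%, 5.07% and 3.25% in HFD mice 1 to 4, against 5.26%, 5.22% and 5.99% in control mice 1, 3 and 4. Every HFD library lay below every control library, and HFD plus HQHF mouse 2 lay within the control range. The nuclear members took 0.966%, 1.14% and 0.856% in HFD plus HQHF and 0.933%, 0.879%, 1.23% and 0.854% in HFD, against 0.98%, 0.964% and 1.03% in control, and these groups overlapped. The 95% Wilson interval of each share was at most 0.00724 percentage points to either side, for counting error alone. mt-Co1, the catalytic subunit 1 of complex IV, made up between 65.4% and 74.6% of the mitochondrial counts in these 10 libraries.

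The ratio of mitochondrial to nuclear member counts within a library does not depend on scaling between libraries. It was 3.48, 4.97 and 2.81 in HFD plus HQHF and 3.71, 3.97, 4.12 and 3.81 in HFD, against 5.36, 5.41 and 5.84 in control. Both HFD-fed groups lay wholly below control, and HFD plus HQHF spread on both sides of HFD. The mean was 3.75 ± 1.11 in HFD plus HQHF (SD, n = 3), 3.9 ± 0.18 in HFD (SD, n = 4) and 5.54 ± 0.262 in control (SD, n = 3). On the log2 scale the difference was -0.51 for HFD against control, -0.10 for HFD plus HQHF against HFD and -0.60 for HFD plus HQHF against control. Leaving out any 1 library kept the first between -0.53 and -0.47 and the last between -0.82 and -0.41. The difference between HFD plus HQHF and HFD ran from -0.32 to 0.09, the highest of these values being positive. As a score over the members, the ratio carries no p. Most mitochondrial counts were mt-Co1. Each set alone against the nuclear sum, mt-Co1 and mt-Nd3 lay wholly below control in HFD plus HQHF. The other mitochondrial members overlapped control in that comparison.

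**Figure D1:**
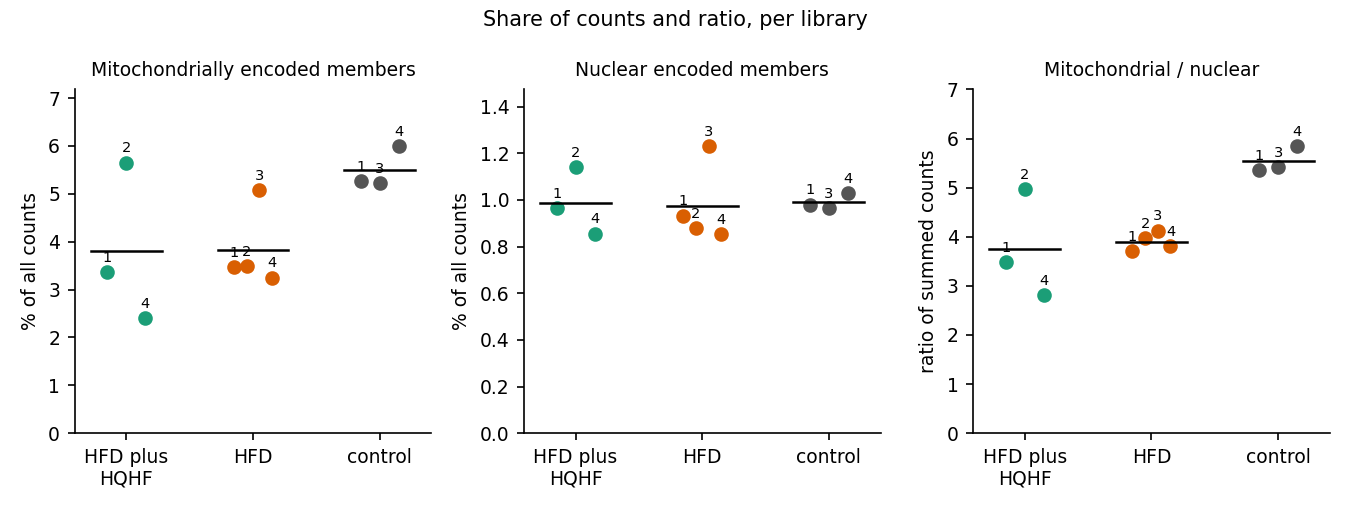
Mitochondrially and nuclear encoded members as a percentage of all counts, and the ratio of their summed counts, with 1 point per library numbered by mouse and a line at the group mean. The ratio lay between 2.81 and 4.97 in HFD plus HQHF and between 3.71 and 4.12 in HFD, against 5.36 to 5.84 in control, while the nuclear shares overlapped.

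The ratio was also read within each complex that both genomes build. For complex IV it was 17.2, 23.2 and 15.9 in HFD plus HQHF and 19.6, 19.8, 19.9 and 19.3 in HFD, against 26.3, 28.7 and 31.9 in control, so that neither HFD-fed group reached control. For complex I it was 1.04, 1.64 and 1.01 in HFD plus HQHF and 1.47, 1.45, 1.56 and 1.67 in HFD, against 2.6, 1.77 and 1.92 in control, again without overlap with control. For complex III it was 1.15, 1.87 and 1.11 in HFD plus HQHF and 1.28, 1.68, 1.71 and 1.99 in HFD, against 2.68, 2.52 and 1.65 in control, and for this complex the groups overlapped. For complex V it was 0.152, 0.302 and 0.0791 in HFD plus HQHF and 0.207, 0.192, 0.312 and 0.197 in HFD, against 0.344, 0.349 and 0.216 in control, where they overlapped too.

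HFD against control asks how the diet changed the chain. HFD livers were lower for 8 of 13 mitochondrial members and 52 of 91 nuclear members tested, and higher for 1 nuclear member, Cox4i2. Among all genes tested, 9.89% were called lower and 16.3% higher. The median log2 fold change was -1.05 over the mitochondrial members and -0.62 over the nuclear ones, beside 0.06 over all genes. All 13 mitochondrial members and 86 of the 91 nuclear ones had a negative fold change. With TMM scaling, HFD lay wholly below control for 12 of 13 mitochondrial and 58 of 91 nuclear members, and for 15.9% of all genes. With library totals alone it did so for 2 of 13 mitochondrial and 0 of 91 nuclear members, and for 214 of 13832 genes. Where the CPM of a single gene are called apart or not overlapping below, TMM-scaled values are meant.

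These counts depend on the scaling. TMM factors ran from 1.2 to 1.42 in HFD, against 0.763 to 0.892 in control, and the 20 most abundant genes took 24.9% to 30.6% of counts in HFD against 28.2% to 35.8% in control. Scaled by library totals alone, no mitochondrial member and no nuclear member was called lower, 4 nuclear members were called higher, among them Atp5if1, Cox4i2 and Ndufa4l2, and the medians were -0.44 for mitochondrial members, -0.01 for nuclear members and 0.66 for all genes. That scaling moves the median of all genes from 0.06 to 0.66, and the share of all genes called lower was 1.11% and higher 50.9%. Relative to the median of all genes, the nuclear members stood at -0.68 with TMM and -0.67 with library totals, and the mitochondrial members at -1.11 and -1.09. Single libraries mattered too: the mitochondrial calls fell to 3, 4 and 3 without HFD 1, 2 and 4, and to 1, 5 and 0 without control 1, 3 and 4. The nuclear calls fell to 33 without HFD 4, 29 without control 1 and 25 without control 4, and 2 mitochondrial members were called without control 1 and HFD 3 together. Calls over all genes fell too. In these fits with 1 library left out, 4.34% (without control 1) to 7.79% (without HFD 2) of all genes were called lower. The nuclear members of HFD livers were thus lower relative to the median gene while their share of all counts overlapped that of control.

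Among the mitochondrial members, mt-Co1 had 19993, 19836, 23730 and 17200 CPM in HFD livers, against 39985, 41217 and 58593 CPM in control livers. With TMM scaling no HFD library came near the lowest control, and the log2 fold change was -1.21 ± 0.31 (edgeR, adjusted p = 0.02). As a share of all counts the gap was small, with mt-Co1 at 3.34% in HFD 3 against 3.44% in control 1. The other core subunits of complex IV were also called lower. mt-Co2 had 2336, 2274, 2658 and 1982 CPM in HFD, against 4995, 3872 and 5035 CPM in control (edgeR, adjusted p = 0.0231), and mt-Co3 changed by -0.94 ± 0.31. mt-Cytb, the cytochrome b of complex III, had 935, 1105, 1564 and 1259 CPM in HFD, against 2502, 2458 and 2297 CPM in control, a change of -0.99 ± 0.27 (edgeR, adjusted p = 0.0251). Its groups were apart, and the 3 control libraries lay close together.

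Of the 7 mitochondrial subunits of complex I, which form much of its membrane arm, 4 were called lower: mt-Nd4l (-1.32 ± 0.37), mt-Nd2 (-1.27 ± 0.37), mt-Nd1 (-1.06 ± 0.26) and mt-Nd5 (-0.96 ± 0.32). mt-Nd1 had 1651, 1561, 1668 and 1431 CPM in HFD, against 3515, 2400 and 3927 CPM in control (edgeR, adjusted p = 0.0153). The HFD values were close together and all below control. mt-Nd3 (-0.90 ± 0.34), mt-Nd4 (-1.10 ± 0.51) and mt-Nd6 (-0.70 ± 0.24) were not called. Neither were the complex V subunits mt-Atp6 (-1.05 ± 0.40) and mt-Atp8 (-1.06 ± 0.51). The genes mt-Nd4l and mt-Nd4 overlap on the genome, as do mt-Atp8 and mt-Atp6, and nuclear copies of mitochondrial DNA exist, so the split of reads among these members is uncertain.

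mt-Nd6 stood apart from the heavy-strand members when each was set against the summed nuclear members of its library. It had 100, 87.4, 113 and 101 CPM in HFD, against 200, 129 and 159 CPM in control (edgeR, adjusted p = 0.0551). HFD lay below control without overlap. Against the nuclear sum, mt-Nd6 differed by -0.05 on the log2 scale between HFD and control, while the other 12 differed by -0.66 (mt-Nd4l) to -0.31 (mt-Nd3 and mt-Nd4). Of these 12, HFD lay wholly below control for mt-Nd1, mt-Nd2, mt-Nd4l, mt-Co1 and mt-Co2, and the groups overlapped for the rest. This contrast between mt-Nd6 and the others was noticed in the data and was not tested.

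**Figure D2:**
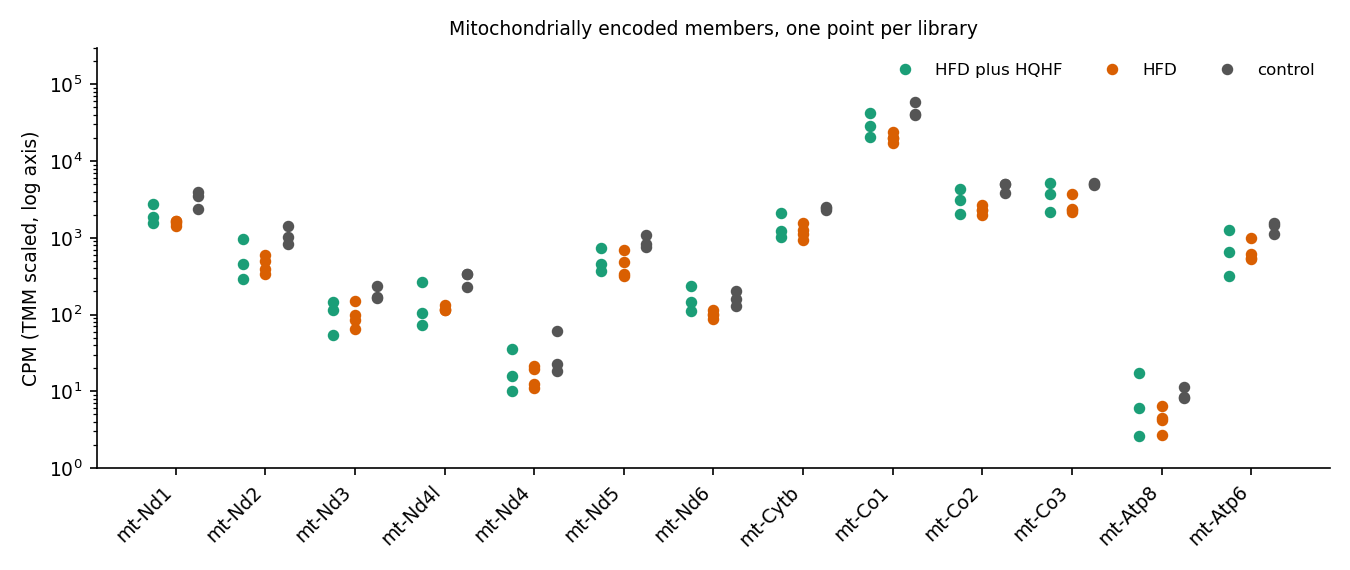
TMM-scaled CPM of the 13 mitochondrially encoded members on a log axis, with 1 point per library, ordered by complex. For mt-Co1 the HFD libraries lie between 17200 and 23730 CPM, below the control libraries at 39985 to 58593 CPM, and HFD plus HQHF spreads from 20365 to 42120 CPM.

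Nuclear members fell across all 5 complexes under TMM scaling. In complex I, 24 of 37 nuclear subunits were called lower (median -0.67). Ndufa5, an accessory subunit of the matrix arm, had 10.4, 9.32, 15 and 10.2 CPM in HFD, against 27.7, 18.7 and 24.9 CPM in control, a change of -1.08 ± 0.24 (edgeR, adjusted p = 0.0115). Ndufb3 of the membrane arm had 20.1, 16.6, 25.4 and 14.8 CPM in HFD, against 49.9, 31.8 and 39.8 CPM in control (-1.07 ± 0.26, edgeR, adjusted p = 0.0161). Both were apart in all libraries. The core subunits Ndufs1 (-0.43 ± 0.17) and Ndufv1 (-0.51 ± 0.18), which carry iron-sulfur clusters and the NADH site, were not called.

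Of the 8 complex I assembly factors, which help build the complex and are not part of it, 1 was called lower, Ndufaf1 (-0.73), with a median of -0.42 over the 8. In complex II all 4 subunits were called lower (median -0.65). Sdha, the flavoprotein that oxidises succinate, had 394, 294, 344 and 285 CPM in HFD, against 607, 524 and 476 CPM in control (-0.70 ± 0.18, edgeR, adjusted p = 0.0191). Its groups were apart, while those of the iron-sulfur subunit Sdhb overlapped, with 97.6 CPM in control mouse 1 and 106 CPM in HFD mouse 3 (-0.70 ± 0.23).

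In complex III, 4 of 8 nuclear subunits were called lower (median -0.60): Uqcrb, Uqcrh, Uqcrc2 and Uqcrfs1. The Rieske iron-sulfur protein Uqcrfs1 had 90.4, 84.7, 95 and 82.2 CPM in HFD, against 141, 124 and 140 CPM in control (-0.62 ± 0.13, edgeR, adjusted p = 0.00835). The lowest control value lay well above the highest HFD value. Uqcrc2, a core protein of the complex, changed by -0.64 ± 0.16.

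In complex IV, 6 of 14 nuclear subunits tested were called lower and 1 higher (median -0.57). Cox6b1, on the intermembrane side, had 127, 116, 140 and 118 CPM in HFD, against 245, 196 and 226 CPM in control (-0.83 ± 0.15, edgeR, adjusted p = 0.00562). All HFD values lay below all control values. Cox5b, Cox7b, Cox8a (-0.71 ± 0.17), Cox5a (-0.69 ± 0.14) and Cox7a2 (-0.60 ± 0.17) were the other 5. The main isoform of the regulatory subunit 4, Cox4i1, had 373, 378, 433 and 331 CPM in HFD, against 498, 479 and 684 CPM in control, and missed the threshold (-0.55 ± 0.20, edgeR, adjusted p = 0.0687) although its groups were apart.

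In complex V, 13 of 17 nuclear subunits were called lower (median -0.74). Atp5me, a small subunit of the membrane part linked to dimers of the enzyme, had 13.8, 12.8, 14.3 and 10.3 CPM in HFD, against 31.1, 19.4 and 40.1 CPM in control (-1.24 ± 0.33, edgeR, adjusted p = 0.0232). HFD was tight and low, and control varied widely. Its call was lost without HFD 4 (-1.14, edgeR, adjusted p = 0.0563), without control 1 (-1.22, edgeR, adjusted p = 0.068) and without control 4 (-0.99, edgeR, adjusted p = 0.0843). Atp5mf changed by -0.98 ± 0.28. The catalytic head subunits Atp5f1a (-0.71 ± 0.18) and Atp5f1b (-0.59 ± 0.17) were called lower with larger counts. Atp5f1b had 843, 814, 841 and 740 CPM in HFD, against 1246, 1125 and 1275 CPM in control, without overlap. Of the 3 genes for the rotor subunit c, Atp5mc3 was called (-0.80 ± 0.17), Atp5mc1 (-0.45 ± 0.17) and Atp5mc2 (-0.37 ± 0.54) were not, and similar copies of these genes make their counts uncertain.

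**Figure D3:**
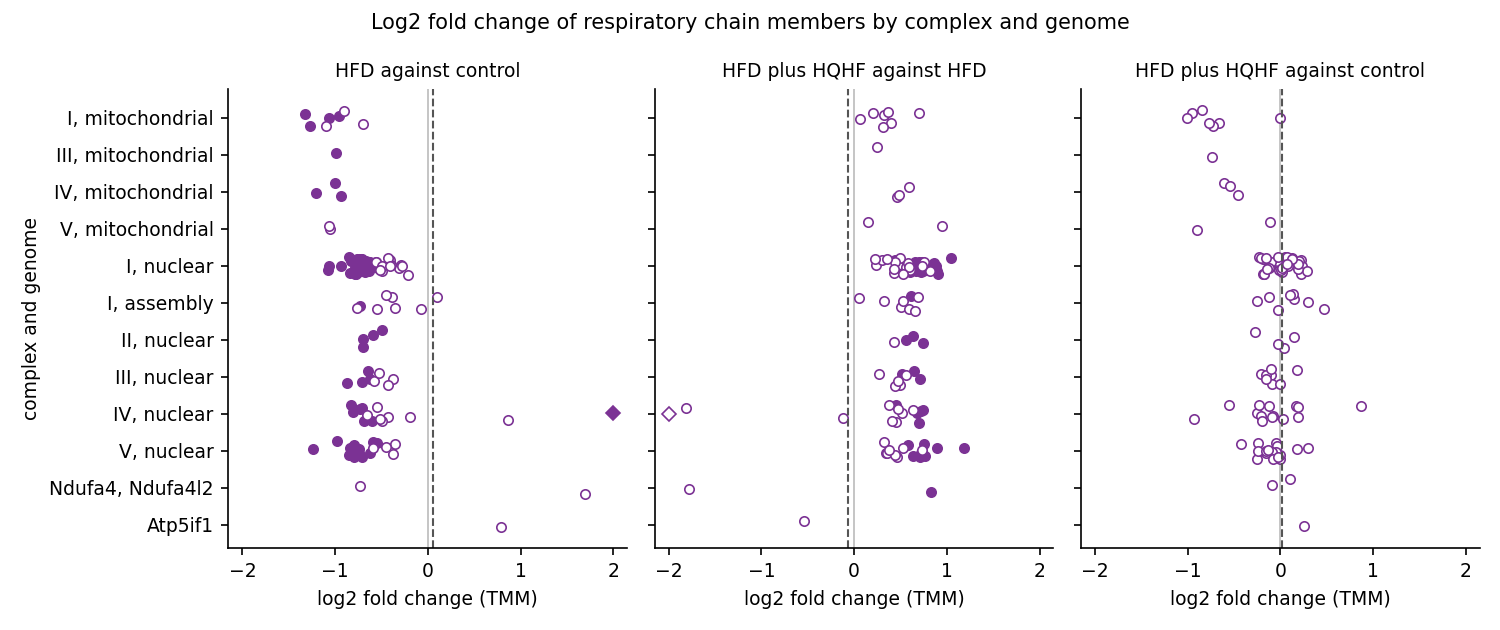
Log2 fold change of each member tested, by complex and genome, with Ndufa4, Ndufa4l2 and the inhibitor Atp5if1 in rows of their own, in the 3 comparisons with TMM scaling; filled points were called at an adjusted p under 0.05, diamonds lie past the axis end, and the dashed line is the median of all genes tested. Mitochondrial members have a median of -1.05 and nuclear members of -0.62 in HFD against control, and 0.37 and 0.58 in HFD plus HQHF against HFD.

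HFD plus HQHF against HFD asks what HQHF changed in livers of mice on the diet. HFD plus HQHF livers were higher for 42 of 91 nuclear members and lower for none, while 7.85% of all genes tested were called higher and 11.1% lower. No mitochondrial member was called by edgeR, although all 13 fold changes were positive and 1, mt-Nd6, had an unadjusted p under 0.05, as 36.1% of all genes had in either direction. DESeq2 called mt-Nd6 and mt-Co1 higher. The median was 0.58 over nuclear members and 0.37 over mitochondrial ones, beside -0.07 over all genes. With TMM scaling, HFD plus HQHF lay wholly above HFD for 51 of 91 nuclear and 0 of 13 mitochondrial members, and for 13.5% of all genes. With library totals it lay wholly above HFD for 0 of 91 nuclear members and for 172 of 13832 genes. It lay wholly below HFD with library totals for 4 nuclear members and for 6970 genes. A difference in change between the 2 genomes was not tested. The comparison shares its HFD libraries with HFD against control, so the opposite signs of the 2 are not independent.

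Scaling and single libraries weighed on this comparison as well. TMM factors were 0.823 to 0.939 in HFD plus HQHF, against 1.2 to 1.42 in HFD. With library totals 3 nuclear members were called lower (Atp5if1, Cox4i2 and Ndufa4l2) and none higher, and the medians were 0.03 for nuclear members, -0.16 for mitochondrial members and -0.62 for all genes; relative to all genes, nuclear members stood at 0.65 with either scaling. That scaling called 0.99% of all genes higher and 47% lower. Without HFD plus HQHF 1, 3 nuclear members were called, without HFD plus HQHF 2 there were 8 (7 higher and 1 lower), and without HFD 1, 2 or 4 there were 20, 22 and 19. Over all genes, 1.97% were called higher without HFD plus HQHF 1 and 2.83% without HFD plus HQHF 2. Without HFD 1, 2 or 4 the share of all genes called higher was 4.49%, 5.55% and 5.41%.

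By complex, HFD plus HQHF was called higher for 20 of 37 nuclear subunits of complex I (median 0.60), 3 of 4 of complex II (0.60), 3 of 8 of complex III (0.50), 5 of 14 of complex IV (0.46) and 9 of 17 of complex V (0.64). One of 8 assembly factors, Ndufaf1, was called (0.61). Ndufb9, an accessory subunit of the membrane arm, had 231, 232 and 160 CPM in HFD plus HQHF, against 101, 98.8, 120 and 82.2 CPM in HFD (1.04 ± 0.19, edgeR, adjusted p = 0.00798). The groups were apart, with HFD plus HQHF 4 the lowest of its group. Ndufb11 had 154, 144 and 116 CPM in HFD plus HQHF, against 76.2, 75.3, 86.6 and 57.3 CPM in HFD (0.90 ± 0.18, edgeR, adjusted p = 0.0111), also apart.

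Ndufb3, whose promoter is printed above, had 35.9, 48.3 and 23.1 CPM in HFD plus HQHF, against 20.1, 16.6, 25.4 and 14.8 CPM in HFD (0.89 ± 0.26, edgeR, adjusted p = 0.0386), and here mouse 4 fell within the HFD range. Atp5me had 26.4, 45.9 and 15.7 CPM in HFD plus HQHF, against 13.8, 12.8, 14.3 and 10.3 CPM in HFD (1.19 ± 0.33, edgeR, adjusted p = 0.0338). Its groups were apart by little, and its fold change fell to 0.72 without HFD plus HQHF 2. Cox4i1 had 703, 685 and 486 CPM in HFD plus HQHF, against 373, 378, 433 and 331 CPM in HFD, and rose by 0.72 ± 0.20 (edgeR, adjusted p = 0.0346). Every TMM-scaled HFD plus HQHF value lay above every HFD value.

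Among the genes always named, Sdhb (0.74 ± 0.23), Ndufv1 (0.59 ± 0.18), Uqcrfs1 (0.52 ± 0.13), Cox5a (0.45 ± 0.14) and Cox6b1 (0.74 ± 0.15) were called higher. Sdha (0.43 ± 0.18), Uqcrc2 (0.47 ± 0.16), Atp5f1a (0.46 ± 0.18), Atp5f1b (0.34 ± 0.17) and Ndufs1 (0.23 ± 0.17) were not. Ndufa4, a small subunit associated with complex IV, had 186, 225 and 101 CPM in HFD plus HQHF, against 97.8, 97.7, 120 and 70.1 CPM in HFD (0.83 ± 0.26, edgeR, adjusted p = 0.0451). HFD plus HQHF 4 again lay within the HFD range.

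Mitochondrial members in this comparison spread widely among the treated mice. mt-Co1 had 28913, 42120 and 20365 CPM in HFD plus HQHF, against 19993, 19836, 23730 and 17200 CPM in HFD (0.59 ± 0.31, edgeR, adjusted p = 0.198). Mouse 2 was the highest and mouse 4 fell within the HFD range. The same order of the 3 treated mice, with mouse 2 highest and mouse 4 lowest, held for all 13 mitochondrial members. mt-Nd6 had 144, 234 and 110 CPM in HFD plus HQHF, against 100, 87.4, 113 and 101 CPM in HFD (0.70 ± 0.24, edgeR, adjusted p = 0.0654). Without HFD plus HQHF 2 the median of the 13 fell to -0.10.

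Set against all tested genes of the same library, each gene centred on its mean over the 10 libraries, the nuclear subunits of complex I had medians of 0.00 to 0.46 on the log2 scale in HFD plus HQHF and -0.62 to -0.17 in HFD, against 0.13 to 0.56 in control. HFD lay below both other groups. The mitochondrial members had medians of -0.65 to 0.60 in HFD plus HQHF and -0.55 to -0.06 in HFD, against 0.48 to 0.90 in control. Here the treated mice covered the HFD range and reached into that of control.

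**Figure D4:**
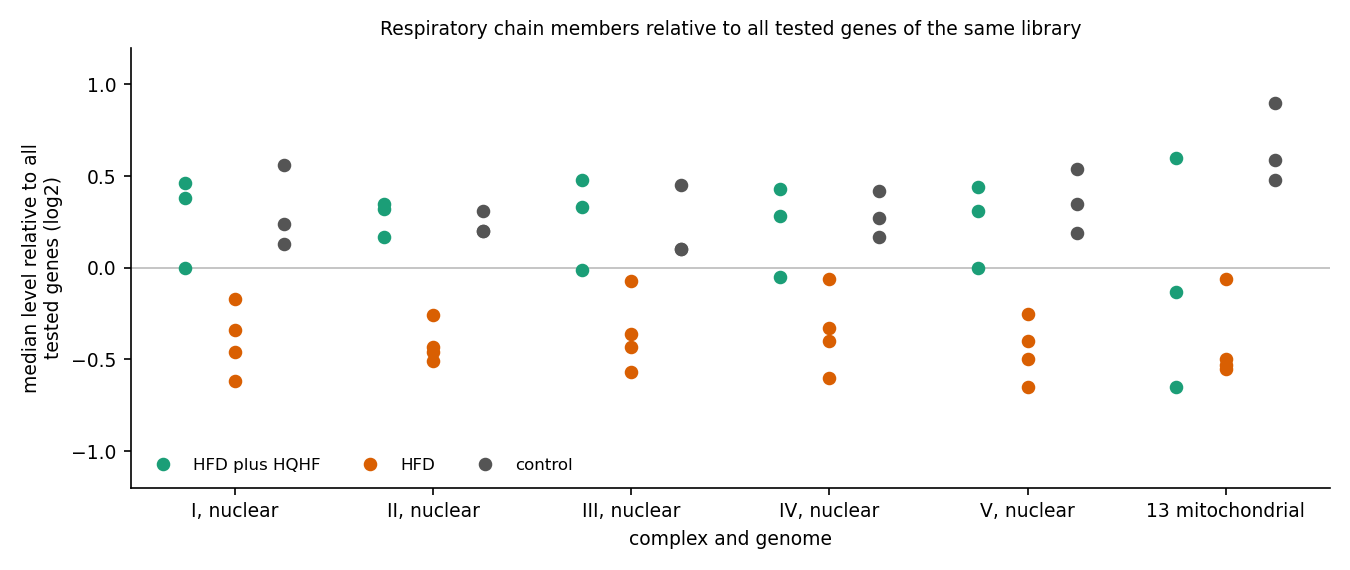
Median level of the nuclear subunits of each complex and of the 13 mitochondrial members, per library, relative to all tested genes of the same library; each gene is centred on its mean over the 10 libraries, so values are log2 differences. Nuclear subunits of HFD libraries lie below those of the other groups, and the mitochondrial members of HFD plus HQHF spread over both. The gap is smallest for complex IV, with -0.06 in HFD 3 against -0.05 in HFD plus HQHF 4.

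HFD plus HQHF against control asks how far treated livers stood from normal ones. By edgeR no gene of the 13832 was called, which is 0% in either direction, while 1008 genes (7.29%) had an unadjusted p under 0.05 and DESeq2 called 72 genes, none of them a member. The median fold change was -0.04 over nuclear members and -0.73 over mitochondrial members, beside 0.02 over all genes. All 13 mitochondrial fold changes were at or below 0, and 6 had an unadjusted p under 0.05, against 1 of 91 nuclear members. The smallest p belonged to mt-Nd4l, with 106, 269 and 72.9 CPM in HFD plus HQHF, against 340, 225 and 339 CPM in control (-1.01 ± 0.40, edgeR, adjusted p = 0.643). Mouse 2 lay within the control range. mt-Cytb had 1234, 2091 and 1021 CPM in HFD plus HQHF, against 2502, 2458 and 2297 CPM in control (-0.74 ± 0.30, edgeR, adjusted p = 0.652), and its groups were apart. mt-Nd1 (-0.66 ± 0.28) and mt-Nd2 (-0.95 ± 0.40) followed. With TMM scaling, groups were apart, with HFD plus HQHF lower, for 3 of 13 mitochondrial and 5 of 91 nuclear members, where 6.72% of all genes were. With library totals this held for 0 of 13 mitochondrial and 2 of 91 nuclear members, and for 408 of 13832 genes.

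In this comparison mt-Nd6 had 144, 234 and 110 CPM in HFD plus HQHF, against 200, 129 and 159 CPM in control, a change of 0.00 ± 0.26. Against the nuclear sum it differed by 0.02 on the log2 scale. The other 12 differed by -1.15 (mt-Nd4l) to -0.44 (mt-Atp8), a contrast that was not tested. Of these 12, HFD plus HQHF lay wholly below control for mt-Co1 and mt-Nd3, and the groups overlapped for the rest. The control libraries are those of HFD against control, so the 2 contrasts of mt-Nd6 are not independent. In HFD plus HQHF against HFD, mt-Nd6 did not stand apart in this way. Against the nuclear sum it differed there by 0.06, beside 0.03 for mt-Atp8, -0.03 for mt-Co1 and, lowest, -0.59 for mt-Atp6.

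Paired isoforms and the inhibitor are given by library because their fold changes lay apart from those of most subunits. Cox4i2, the isoform of subunit 4 known from lung and from low-oxygen conditions, had 0, 0.104 and 0 CPM in HFD plus HQHF and 0.201, 0.11, 0.333 and 0.292 CPM in HFD, against 0.0263, 0.0256 and 0 CPM in control. That is 4 reads in HFD plus HQHF and 51 in HFD, against 2 in control. The ratio of HFD to control per scaled library was 12.7, with an exact 95% counting interval of 3.34 to 108, and the fitted change of 3.49 ± 1.08 (edgeR, adjusted p = 0.0369) depends on the prior count. It was not called when any 1 control library was left out (edgeR, adjusted p = 0.106 to 0.116). A count of 0 allows up to 0.0709 and 0.0664 CPM by library totals in HFD plus HQHF 1 and 4, and 0.0726 CPM in control 4.

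Atp5if1, which binds and inhibits ATP synthase when it would run backwards, had 10.5, 11.9 and 5.07 CPM in HFD plus HQHF and 14.1, 11.1, 14.8 and 13.2 CPM in HFD, against 7.41, 6.41 and 9.33 CPM in control. All HFD values lay above control, and the change was 0.79 ± 0.27 (edgeR, adjusted p = 0.0503). With library totals it was 1.40 (edgeR, adjusted p = 0.0021), with DESeq2 0.75 (adjusted p = 0.0338), and over all settings its adjusted p ran from 0.0021 to 0.921, the last with all 12 libraries, where the change was -0.18. In HFD plus HQHF against HFD the change was -0.54 ± 0.26 (edgeR, adjusted p = 0.167).

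Ndufa4l2, a relative of Ndufa4 known to rise in low oxygen, had 0.822, 0.46, 2.9 and 1.58 CPM in HFD, against 0.42, 0.282 and 0.635 CPM in control (1.69 ± 0.64, edgeR, adjusted p = 0.0716). Its groups overlapped. Cox7a1 had 1.64, 1.21, 10.2 and 0.688 CPM in HFD, against 1.18, 1.72 and 2.73 CPM in control (0.87 ± 0.83, edgeR, adjusted p = 0.461). HFD 3 alone lay above control, and without it the change was -0.66. Cox8b, not tested, had 0.0548, 0, 12.6 and 0 CPM in HFD, against 0.236, 0.0256 and 0 CPM in control, so HFD 3 stood alone again. In HFD 3 the summed list of 8 adipocyte genes was 0.0367% of counts, and in the other 9 libraries at most 0.00353%; its part in these 2 isoforms was not tested. Cox6a1 (-0.66 ± 0.26), Cox6b2 (-0.43 ± 0.63) and Cox7a2l were not called in HFD against control.

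**Figure D5:**
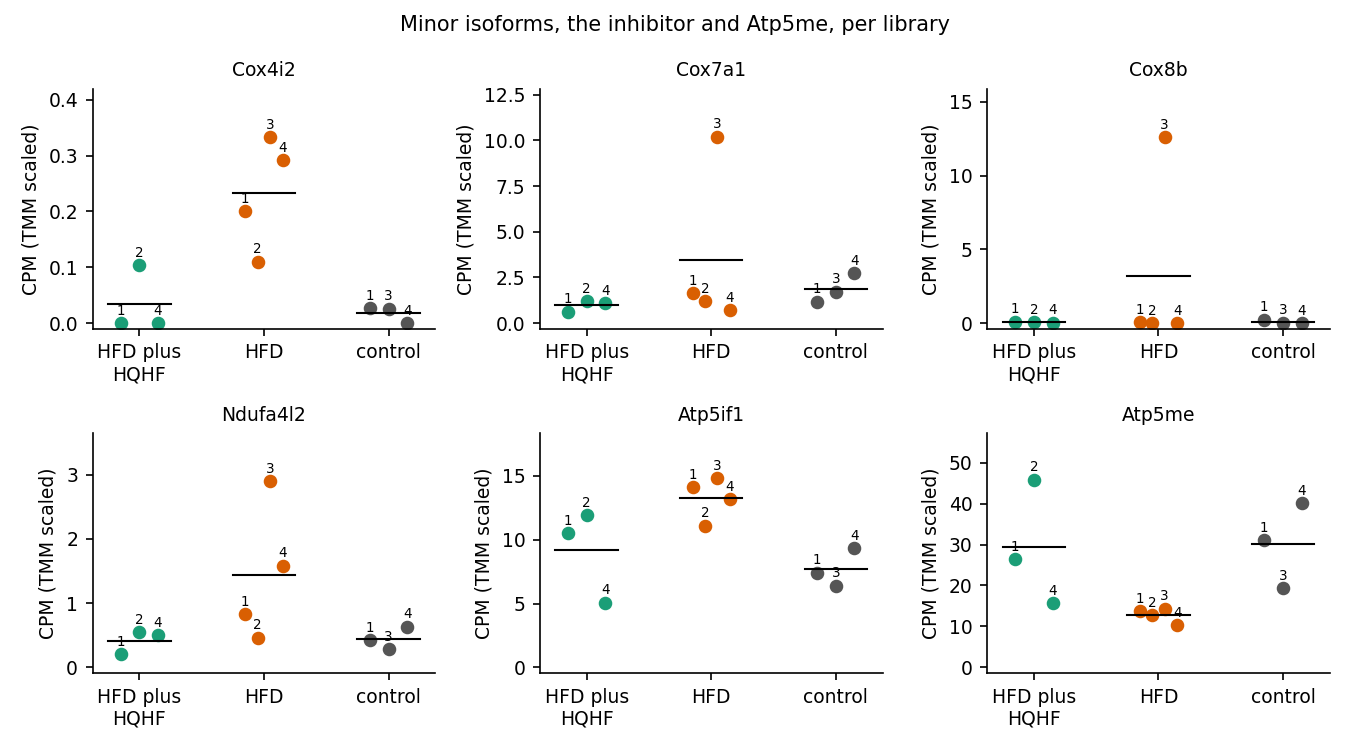
TMM-scaled CPM per library of the minor isoforms Cox4i2, Cox7a1, Cox8b and Ndufa4l2, the inhibitor Atp5if1 and the small ATP synthase subunit Atp5me, with points numbered by mouse and a line at the group mean. HFD 3 carries 10.2 CPM of Cox7a1 and 12.6 CPM of Cox8b, and Atp5if1 is higher in every HFD library than in every control library.

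Markers of other cell types moved with the same groups. The summed list of 12 monocyte and recruited macrophage genes was 0.0077% to 0.0101% of counts in HFD plus HQHF and 0.0367% to 0.104% in HFD, against 0.00667% to 0.0103% in control. Of these 12, 11 were called higher in HFD against control and 10 lower in HFD plus HQHF against HFD. Over all genes tested, 16.3% were called higher and 9.89% lower in the first comparison, and 7.85% higher and 11.1% lower in the second. The list of 8 stellate cell and fibroblast genes was 0.0214% to 0.0233% in HFD plus HQHF and 0.0484% to 0.128% in HFD, against 0.0158% to 0.021% in control, with 6 called higher in HFD against control and 6 lower in HFD plus HQHF against HFD. The hepatocyte list of 12 was 8.05% to 12.1% in HFD plus HQHF and 6.92% to 11.9% in HFD. In control it was 11.4% to 14.7%. Of these 12, 5 were called lower in HFD against control and 4 higher in HFD plus HQHF against HFD. Their medians with TMM scaling were -0.92 in the first comparison and 0.69 in the second. Nuclear chain members stood at -0.62 and 0.58. With TMM scaling all 12 hepatocyte genes lay wholly below control in HFD, as did 15.9% of all genes tested. With library totals 4 of the 12 did so, and 214 of 13832 genes. In the second comparison 11 had a positive fold change and 1 a negative one. Wholly above HFD were 5 with TMM, where 13.5% of all genes were, and 3 with library totals, where 172 genes were. The list of 8 Kupffer cell genes was 0.0284% to 0.0436% in HFD plus HQHF and 0.03% to 0.0464% in HFD, against 0.0243% to 0.0324% in control, with 4 lower in HFD against control and 4 higher in HFD plus HQHF against HFD. None of the genes of these 4 lists was at 0 in any of the 10 libraries compared. The list of 6 endothelial genes was 0.0318% to 0.0398% in HFD plus HQHF and 0.0406% to 0.0485% in HFD, against 0.0289% to 0.0356% in control, and HFD lay above both other groups as a share of counts. With TMM scaling edgeR called 0 of the 6 in HFD against control (median -0.09) and 0 in HFD plus HQHF against HFD (median 0.11), with 0 and 2 at an unadjusted p under 0.05. The part of these 5 lists in the results on the chain was not tested. In bulk liver, fewer hepatocytes and less RNA per hepatocyte cannot be told apart.

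Genes of the wider pathway were read from lists chosen by role. For the counts in these lists, 9.89% of all genes tested were called lower and 16.3% higher in HFD against control, and 7.85% were called higher and 11.1% lower in HFD plus HQHF against HFD. Of 7 electron carriers and subunits outside the symbol rule, 4 were called lower in HFD against control, among them Cyc1, cytochrome c1 of complex III (-0.74 ± 0.16), and Etfdh, which passes electrons from fatty acid oxidation to ubiquinone (-1.03 ± 0.26). One, Etfb, was called higher in HFD plus HQHF against HFD (1.02 ± 0.20). Of 48 assembly factors outside the rule, 11 were lower in HFD, led by Sco2, a copper chaperone of complex IV (-1.46 ± 0.23), and Higd1a (-0.94 ± 0.17), and 15 were higher in HFD plus HQHF against HFD, among them Surf1, another complex IV assembly factor (0.80 ± 0.16), and Higd1a (0.82 ± 0.17). The list medians were -0.37 and 0.38.

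For the mitochondrial genome, 5 of 19 genes of transcription and maintenance were called lower in HFD and 7 higher in HFD plus HQHF against HFD. Tfam, which packages mitochondrial DNA and starts its transcription, had 27.9, 33.3 and 25.6 CPM in HFD plus HQHF and 17.2, 19, 23.9 and 19 CPM in HFD, against 29.6, 28.7 and 32 CPM in control. HFD lay below both other groups, with changes of -0.60 ± 0.14 in HFD against control (edgeR, adjusted p = 0.0148) and 0.55 ± 0.14 in HFD plus HQHF against HFD (edgeR, adjusted p = 0.0269). The transcription factor Tfb2m changed by -0.84 ± 0.21 in the first. Polg2 (1.05 ± 0.22), the accessory subunit of the mitochondrial DNA polymerase, and Tfb1m (0.80 ± 0.18) had the smallest p in the second. Of 19 genes of mitochondrial RNA processing and stability, 8 were lower in HFD, with the smallest p for Prorp, the protein that cuts tRNA ends (-0.67 ± 0.14), and Ptcd2 (-0.56 ± 0.13). Of these 19, 3 were higher in HFD plus HQHF against HFD, among them Hsd17b10, a subunit of mitochondrial RNase P (1.68 ± 0.41), and Slirp (0.71 ± 0.22).

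Of 14 nuclear regulators, Ppara was the single one called in either comparison. This receptor, which drives fatty acid oxidation genes in liver, had 428, 480 and 519 CPM in HFD plus HQHF and 193, 183, 311 and 205 CPM in HFD, against 522, 533 and 436 CPM in control. HFD lay below both other groups, by -1.16 ± 0.21 against control (edgeR, adjusted p = 0.00571), and HFD plus HQHF was higher than HFD by 1.09 ± 0.21 (edgeR, adjusted p = 0.00954). Nrf1, named for the motif above and not by the rule, changed by -0.04 ± 0.14 in HFD against control and -0.06 ± 0.14 in HFD plus HQHF against HFD, and was not called.

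In the citric acid cycle, 4 of 18 genes were lower in HFD and 1 higher. Suclg1 (-0.73 ± 0.19) and Idh3b (-0.57 ± 0.17) had the smallest p, and the 1 higher was Idh2 (0.48 ± 0.15), which makes NADPH. In HFD plus HQHF against HFD, Suclg1 was higher (0.71 ± 0.19) and Idh2 lower (-0.53 ± 0.15). The single calls of this list, 1 of 18 in a direction, are a smaller share than over all genes. Of 23 genes of mitochondrial membranes, import and chaperones, 6 were lower in HFD, among them Phb2 (-0.74 ± 0.17) and Tomm70a (-0.64 ± 0.15), and 1 was higher, Slc25a4 (1.66), named after its value was seen. Of these 23, 4 were higher in HFD plus HQHF against HFD, among them Phb2 (0.77 ± 0.17), and 1 was lower, Slc25a4 (-1.53), with a list median of 0.32. Of 8 antioxidant and uncoupling genes, 2 were lower in HFD and 1 higher, with Sod2, the superoxide dismutase of the matrix, at -0.79 ± 0.15 and the uncoupling protein Ucp2 at 0.97 ± 0.26. In HFD plus HQHF against HFD, 3 of these 8 were higher and 1 lower, with Sod2 at 0.63 ± 0.15 and Ucp2 at -0.82 ± 0.26.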

How the data were processed

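Total RNA of mouse liver was extracted with TRIzol and made into long RNA libraries with a stranded kit and removal of ribosomal RNA, per the labels' protocols. The deposited table holds whole-number counts per gene, made by the authors, with no normalization. HISAT2, RSEM and the build GRCm39 are named per the submitters' processing notes; the sources used here do not give their versions, the counting step or its use of strand. Small RNA libraries of the same mice were not used.

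Depth is 36198931 to 46454404 counts in the 10 libraries compared. Analysis used R 4.3.3, edgeR 4.0.16, limma 3.58.1 and DESeq2 1.42.0, with Python 3.11.15, matplotlib 3.10.9 and pandas 2.3.3 for sequences and figures. Genes with low counts were dropped by filterByExpr, libraries were scaled by TMM, and 1 quasi-likelihood model (estimateDisp, robust glmQLFit, glmQLFTest) held the means of the 3 groups. P-values were adjusted by Benjamini-Hochberg over all genes tested, and the standard error is the fold change divided by the square root of F. CPM are counts per 1000000 of the TMM-scaled library size. The method was tested on simulated data in which few genes changed, in equal numbers up and down. That test cannot check the choice of scaling. No batch term could be fitted, since each mouse has its own batch code. A count of 0 was taken to allow 3 counts.

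Members and lists were chosen with earlier results of these data known. Named were the 13 mitochondrial members, the 4 highest and 4 lowest called nuclear members per comparison whose higher group averaged 1 CPM or more, a set of core subunits and paired isoforms, and 2 called genes with the smallest p per list; a result on the core subunits of complex I is not reported here. Other settings were another scaling (RLE, library totals, TMM without mitochondrial genes), DESeq2, other filters, a block for the replicate number, a fit of 2 groups alone, other thresholds, leaving out each library, all 12 libraries and, added after seeing the data, leaving out control 1 and HFD 3 together.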

Additional observations from a re-analysis of the deposited data

Results flagged for a closer look

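In the HFD group, 47 values (members named in the text and sums over members) were looked at for 1 library far from the other 3, and 5 stood out, where chance gives about 1 in 20. Atp5f1a had 578 CPM in HFD 2, against 671 to 690 in the other HFD libraries. The other 4 were all in HFD 3: Cox8b with 12.6 CPM against 0 to 0.0548, Cox7a1 with 10.2 CPM against 0.688 to 1.64, mt-Co3 with 3673 CPM against 2164 to 2360, and the share of all counts held by mitochondrial members with 5.07% against 3.25% to 3.49%. No cause was tested.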

How the results depend on the processing

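With all 12 libraries, 0 members of either genome were called in HFD against control or in HFD plus HQHF against HFD. Of 13929 genes, that fit called 7 in the first and 1 in the second. In HFD against control, the 8 mitochondrial members called became 0 with library totals, 5 with a 2-fold minimum and 2 without control 1 and HFD 3, and 0 to 11 when 1 library was left out (0 without control 4, 1 without control 1). Of nuclear members, 52 were called lower and 1 higher. With library totals 0 were lower and 4 higher, and the count in both directions was 4 with a 2-fold minimum and 25 to 57 when 1 library was left out (25 without control 4). In HFD plus HQHF against HFD, the 0 mitochondrial members became 2 with DESeq2 and 1 at an adjusted p under 0.1, and 0 to 1 when 1 library was left out. The 42 nuclear members called higher became 0 with library totals, where 3 others were called lower. In both directions the count was 13 with the replicate block, 2 with a 2-fold minimum and 3 to 54 when 1 library was left out. In HFD plus HQHF against control the count was 0 under all settings, leaving out 1 library included. Of 42 named members, 11 turned sign under at least 1 setting in HFD against control, 27 in HFD plus HQHF against HFD (10 of them mitochondrial members with library totals) and 25 in HFD plus HQHF against control. Those called in the reported fit or under the setting that turned them were, in HFD against control, Cox4i2 (-0.10 with all 12 libraries), Atp5f1b (0.02 with library totals) and Cox7a2 (0.01 with library totals), and in HFD plus HQHF against HFD Cox5a (-0.10) and Uqcrfs1 (-0.03), both with library totals. Why these settings differ was not tested. The log2 ratio of mitochondrial to nuclear counts kept its direction in HFD against control (-0.53 to -0.47) and HFD plus HQHF against control (-0.82 to -0.41) when 1 library was left out, and ran from -0.32 to 0.09 in HFD plus HQHF against HFD. Mice with the same number did not deviate together (correlations -0.05 to 0.12), so the numbers were not taken to pair them; the block left 7 mitochondrial and 36 nuclear members called in HFD against control. Members under about 1 CPM, such as Cox4i2, rest on few reads.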

Other observations

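Within the control group, several small nuclear subunits were lowest in mouse 1, a pattern noticed in the data. Uqcrq of complex III had 37.7 CPM in control 1, 83.7 CPM in control 3 and 252 CPM in control 4. Ndufb7 of complex I had 18.8, 42.7 and 70.4 CPM in the same order, and Atp5f1d of complex V had 98.1, 174 and 216 CPM. The mitochondrial member mt-Nd4 was highest in control 1, with 61.3 CPM against 18.5 and 22.6 CPM in the other two. In control 1 the summed list of 8 pancreatic acinar genes was 0.225% of counts, against at most 0.00259% in the other 9 libraries.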
